A study of Mus musculus with 20 samples.

Results

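The TGF-beta, activin and BMP pathway was described through 45 of its genes, found in both expression tables by matching mouse gene symbols to NCBI Gene numbers. The list was taken whole, and all 45 were among the 19311 genes of one table and the 24454 genes of the other. The genes covered 3 TGF-beta ligands, 4 latent TGF-beta binding proteins, 4 activin subunits and antagonists, 5 BMP ligands and antagonists, 11 receptors and co-receptors, 5 Smads that carry the signal, 4 inhibitory Smads and Smurf ligases, 3 nuclear corepressors and 6 target genes. RNA sequencing measured them in 20 libraries of mouse breast cancer cells, in 10 groups of 2 replicates taken from 2 independent experiments. All cells descend from Py2T, a line from a mammary tumour of the MMTV-PyMT mouse, in which a viral promoter drives the polyoma middle T antigen in mammary epithelium. Py2T LT stands for long-term treated Py2T cells, which received TGF-beta 1 at 2 ng/ml over more than 10 days. The other 3 groups of this set, M1, M2 and M3, were stable mesenchymal lines that are each 1 clone. The labels give TGF-beta 1 for Py2T cells and none for the clones, so the clone and the added ligand cannot be told apart in a comparison of these groups. M3 cells carried a control shRNA (shControl) or an shRNA against Tet2 (shTet2) or Mbd3 (shMbd3), each either untreated or exposed for 72 hours to 2 µM CI994, which blocks histone deacetylases of class I. Tet2 oxidises methylated cytosine, while Mbd3 belongs to the NuRD corepressor complex. The number of hairpins per gene was not given in the sources used here.

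Ligands of this family bind pairs of type I and type II receptor kinases. TGF-beta and activin receptors phosphorylate Smad2 and Smad3, BMP receptors phosphorylate Smad1 and Smad5, and both branches share Smad4. Secreted traps set how much ligand reaches the receptors: follistatin (Fst) and follistatin-like 3 (Fstl3) bind activins, and gremlin (Grem1) and noggin (Nog) bind BMPs. In mammary epithelial cells TGF-beta is a classical inducer of the epithelial to mesenchymal transition, and the Id genes are the best known early targets of BMP signalling.

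The promoters of 6 genes that the results below turn on are shown here. These genes were picked with their values known from the genes with a matched entry. Each window is the 250 bases before a start of transcription in RefSeq on build GRCm38.p6, written 5′ to 3′ on the gene's strand. The 2 activin subunits Inhba and Inhbb are shown because their levels moved in opposite directions, Fstl3 because it was lost from the clones, Grem1 because it was nearly lost with the shRNA against Tet2, Tgfbi because it was nearly lost with either shRNA, and Id3 as an Id gene. Inhba lies at chr13:16011601-16011850 on the plus strand, Inhbb at chr1:119422249-119422498 on the minus strand and Fstl3 at chr10:79777024-79777273 on the plus strand. Grem1 lies at chr2:113758649-113758898 on the minus strand, Tgfbi at chr13:56609336-56609585 on the plus strand and Id3 at chr4:136143572-136143821 on the plus strand. The Inhba window lies inside the annotated span of its gene, chr13:16004256-16031609, while each of the other windows borders its gene. Capitals mark matches on either strand to CAGAC, which contains the core element bound by Smad3 and Smad4 and reads GTCTG on the other strand, or to GGCGCC, a GC-rich Smad motif that reads the same on both strands.
Inhba: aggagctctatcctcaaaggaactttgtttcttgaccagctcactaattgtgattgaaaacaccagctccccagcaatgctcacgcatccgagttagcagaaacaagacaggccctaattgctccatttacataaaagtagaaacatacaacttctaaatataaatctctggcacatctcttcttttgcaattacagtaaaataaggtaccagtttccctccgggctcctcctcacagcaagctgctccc
Inhbb: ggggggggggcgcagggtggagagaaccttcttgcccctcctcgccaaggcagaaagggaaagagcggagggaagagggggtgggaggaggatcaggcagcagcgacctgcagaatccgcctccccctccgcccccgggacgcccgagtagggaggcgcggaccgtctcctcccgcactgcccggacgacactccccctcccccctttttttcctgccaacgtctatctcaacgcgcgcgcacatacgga
Fstl3: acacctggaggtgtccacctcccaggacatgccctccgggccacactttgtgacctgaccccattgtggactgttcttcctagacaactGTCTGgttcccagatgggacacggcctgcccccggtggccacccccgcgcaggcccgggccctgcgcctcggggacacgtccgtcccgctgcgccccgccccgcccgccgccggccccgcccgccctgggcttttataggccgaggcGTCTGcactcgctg
Grem1: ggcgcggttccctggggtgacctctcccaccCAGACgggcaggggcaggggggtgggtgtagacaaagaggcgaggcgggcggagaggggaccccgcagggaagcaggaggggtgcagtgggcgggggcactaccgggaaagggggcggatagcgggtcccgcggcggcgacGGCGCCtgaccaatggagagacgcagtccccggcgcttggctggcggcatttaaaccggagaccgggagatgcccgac
Tgfbi: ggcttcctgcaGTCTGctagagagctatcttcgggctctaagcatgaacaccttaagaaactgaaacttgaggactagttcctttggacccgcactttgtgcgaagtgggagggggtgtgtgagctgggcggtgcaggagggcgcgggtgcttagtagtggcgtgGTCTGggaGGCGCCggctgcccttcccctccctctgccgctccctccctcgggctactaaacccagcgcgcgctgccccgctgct
Id3: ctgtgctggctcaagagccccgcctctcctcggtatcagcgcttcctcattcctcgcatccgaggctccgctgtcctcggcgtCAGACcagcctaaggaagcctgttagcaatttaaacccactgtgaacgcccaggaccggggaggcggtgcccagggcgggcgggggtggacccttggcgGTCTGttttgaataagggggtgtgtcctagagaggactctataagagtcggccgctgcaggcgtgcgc

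Neither activin subunit had a match to the marked motifs in its window. These windows differed in base composition, with 43.2% G and C for Inhba, whose window lies inside the gene, and 68.0% for Inhbb. Fstl3 held CAGAC at positions -161 and -14 before the start, Id3 at -167 and -68, and Grem1 at -219. Tgfbi held CAGAC at -239 and -85, with GGCGCC at -77, and Grem1 held GGCGCC at -78. RefSeq promoters matched 31 of the 45 genes through 41 windows, some of which overlap. The unmatched genes were Tgfb3, Fst, Bmp2, Bmp7, Nog, Tgfbr3, Bambi, Smad2, Smad4, Smad7, Skil, Id1, Ccn2 and Pmepa1. CAGAC was in 20 of these 41 windows (48.8%) and in 42.2% of all 32851 windows of the same length, and GGCGCC was in 11 (26.8%) and in 9.6%. CACCTG, the E-box bound by Zeb and Snail factors, was in 5 of the 41 windows (12.2%) and in 17.2% of all windows, while the AP-1 site TGACTCA was in 0 of the 41 and in 4.5% of all. A match describes letters and is no measured binding site.

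Py2T LT and the clones, 8 libraries, were given in RPKM, which allows levels of different genes to be compared per length, and the 12 M3 shRNA libraries in CPM, which does not. The RPKM libraries have unknown depth, and the CPM libraries held 16086082 to 24977595 reads, so that 3 reads, the limit a count of 0 allows, correspond to 0.12 to 0.186 CPM. Such limits cover counting error only. Tet2 was 8.41 and 7.97 CPM with shTet2 against 15.2 and 13.9 with shControl, and with CI994 in both arms the gap was smaller, 6.30 and 7.42 against 8.13 and 11.4. Mbd3 was 22.1 and 27.7 CPM with shMbd3, and 16.6 and 21.9 with CI994 against 53.6 and 67.7 with shControl and CI994. Mbd3 stood at 66.5 CPM in shControl replicate 2 but at 5.40 CPM in the library labelled shControl replicate 1, below both shMbd3 libraries, which goes against its label. Its replicate difference also followed gene GC content, by -1.76 on the log2 scale from the lowest to the highest decile of genes, against -0.39 to 0.01 in the other 5 pairs of the set. Every comparison with untreated shControl rests on this pair, and its spread enters the error of the whole CPM fit. The main count of called pathway genes in each comparison is therefore given with and without that library. Counts under other settings and counts across comparisons were not all repeated without it. Each of the 6 epithelial and 6 mesenchymal markers was over 1 RPKM and over 1 CPM in at least 1 library, with the epithelial Esrp1 at 0.156 and 0.119 RPKM in M1 and 0.568 and 0.448 in M3, while the 4 endothelial markers summed to at most 1.44 RPKM and 1.12 CPM. The haematopoietic markers summed to at most 2.99 RPKM (4 of 5 measured) and to 1.21 to 20.6 CPM (5 of 5), with Cd68 and Lyz2 highest under CI994. In these bulk libraries a lower level can mean fewer cells with the RNA or less RNA per cell, which cannot be told apart.

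Against Py2T LT, the clones differed in secreted factors, receptors and targets of the pathway. The activin subunit Inhba was lower in all clones, the trap Fstl3 and Bmp2 were near or at 0, while the other activin subunit Inhbb, the traps Fst and Grem1 and the ligand Bmp4 appeared from near 0. The receptors Tgfbr1, Tgfbr2 and Tgfbr3 and the 3 Id genes were higher in every clone, and the TGF-beta targets Ccn2, Pmepa1, Skil, Smad7 and Tgfbi were lower. The genes for Smad2, Smad3 and Smad4 did not pass the test. In limma's test over all 11717 genes with at least 1 RPKM in 2 libraries, adjusted by Benjamini-Hochberg with a threshold of 0.05, the mean of the clones was higher for 18 of the 42 tested pathway genes and lower for 16. Across all tested genes 32.4% were called higher and 32.6% lower, so that 81.0% of the pathway genes were called beside 65% of all genes. The median difference of the pathway genes was 0.07 and their median absolute difference 0.80 on the log2 scale, beside 0.00 and 0.45 over all genes. Tgfb2 (at most 0.718 RPKM), Nog (at most 0.386) and Bambi (at most 0.421) were under the filter in this set. Fstl3, Bmp2, Inhbb, Fst, Bmp4, Grem1, Tgfbr3 and Eng reached the filter level in either Py2T LT or the clones, not in both. Apart from Eng, which was low in M3, they could be called in 1 direction only. All of them are counted among the calls above.

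**Figure D1:**
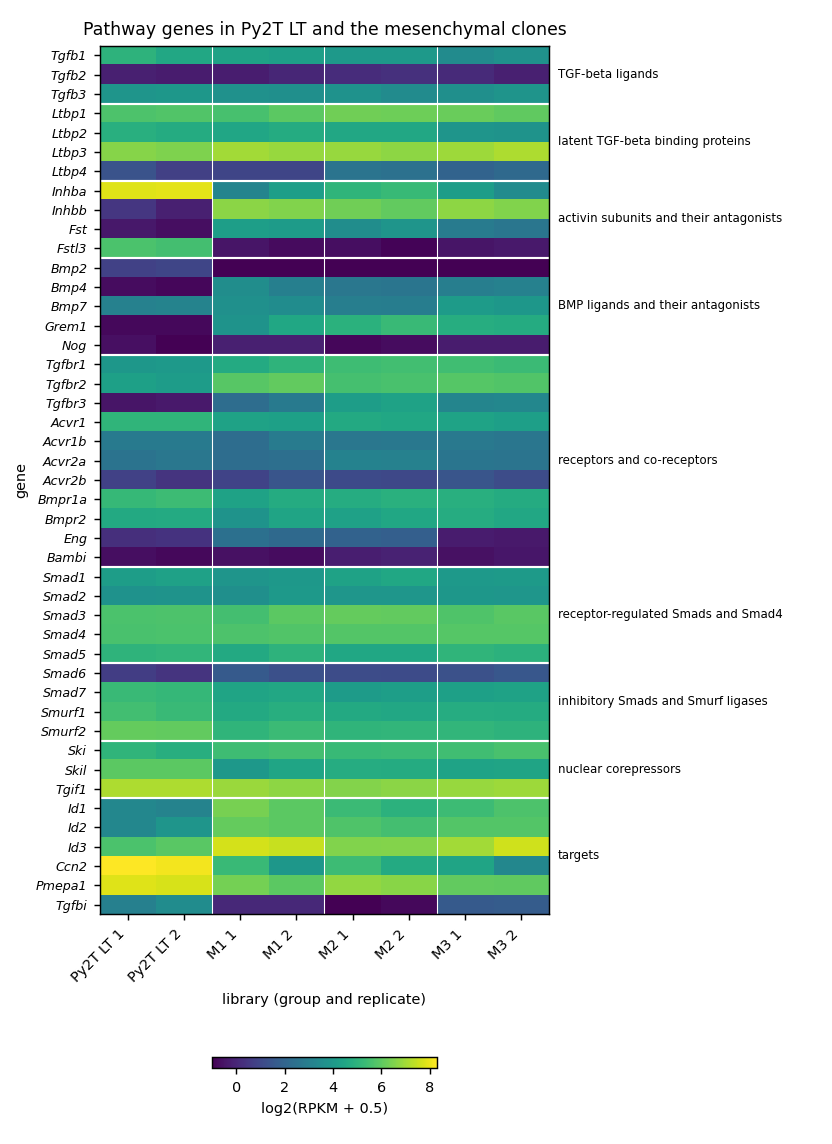
Level of the 45 pathway genes (rows, grouped by role) in each of 8 libraries (columns; Py2T LT and the 3 clones, with 2 replicates each), as colour on a log2(RPKM + 0.5) scale. Inhba, Fstl3 and Ccn2 are bright in both Py2T LT libraries and dark in the clones, and Inhbb, Fst, Bmp4, Grem1 and Tgfbr3 show the reverse.

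The activin subunits moved in opposite directions. Inhba, which encodes the beta A subunit of activin A, was 228 and 241 RPKM in Py2T LT, 8.74 and 18.2 in M1, 33.7 and 38.2 in M2 and 17.4 and 10.7 in M3. Inhbb, the beta B subunit of activin B, was 0.889 and 0.381 RPKM in Py2T LT, 102 and 92.8 in M1, 76.3 and 66.7 in M2 and 105 and 92.7 in M3. No clone library overlapped Py2T LT for either gene. On the log2 scale, with 0.5 added to each value, the mean of the clones differed by -3.65 ± 0.31 (SE) for Inhba (limma, adjusted p = 0.000142) and by 6.31 ± 0.16 for Inhbb. The 2 activin traps also moved in opposite directions: Fstl3 fell from 50.5 and 45.2 RPKM to at most 0.285 in the 6 clone libraries, and Fst rose from 0.264 and 0.137 RPKM to 17.8 and 16.8 in M1, 11.3 and 13.8 in M2 and 6.74 and 5.83 in M3. These differences were -6.21 ± 0.13 for Fstl3 and 4.05 ± 0.12 for Fst. All 4 genes of this group were called in each of the 3 clones, but the filter let Inhbb, Fst and Fstl3 be called in this direction only.

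Among BMP ligands and their traps, Bmp2 was 1.26 and 1.41 RPKM in Py2T LT and was listed at 0 in all 6 clone libraries, so no fold is given. Bmp4 was 0.117 and 0.056 RPKM in Py2T LT, 11.3 and 7.59 in M1, 5.93 and 5.59 in M2 and 7.36 and 7.89 in M3, a difference of 3.75 ± 0.14. Grem1, a secreted trap of Bmp2, Bmp4 and Bmp7, was 0.071 and 0.0682 RPKM in Py2T LT, 13 and 22.9 in M1, 30.4 and 39 in M2 and 27.4 and 25.9 in M3. Its difference was 5.49 ± 0.20, the largest rise of the pathway genes after Inhbb. Bmp7 was 7.89 and 8.37 RPKM in Py2T LT and 7.21 to 16.8 in the clones. It passed at 0.39 ± 0.10 but not without Py2T LT replicate 1 (0.33), and the M2 libraries, at 7.4 and 7.21, lay below Py2T LT.

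Tgfb1, Tgfb3 and the latent TGF-beta binding proteins differed by less than 1 on the log2 scale in the mean of the clones. Tgfb1 was 32 and 23 RPKM in Py2T LT and 10.8 to 20.1 in the clones, lower by -0.84 ± 0.12 (limma, adjusted p = 0.000363), while Tgfb3, at 13.9 and 14.5 against 10.5 to 13.6 RPKM, did not pass. Ltbp2 was lower by -0.48 ± 0.09, which rested mainly on M3 (13.8 and 13.3 RPKM against 28.5 and 25.9). Ltbp1, Ltbp3 and Ltbp4 passed as higher, at 0.28, 0.35 and 0.77, but Ltbp3 and Ltbp4 did not without Py2T LT replicate 2 (0.29 and 0.44), and Ltbp1 did not when any 1 library of Py2T LT, M2 or M3 was left out (0.23 to 0.31). Per length, Ltbp3 was the highest of these 4 in every library, at 89.3 to 140 RPKM.

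Of 10 receptors tested, 5 were higher and 2 lower. Tgfbr1, the type I receptor of TGF-beta, was 14.4 and 15.3 RPKM in Py2T LT and 25 to 44.4 in the clones (1.26 ± 0.11), and Tgfbr2, its type II partner, was 18.8 and 17.3 against 46.5 to 66 RPKM (1.56 ± 0.08). Tgfbr3, the co-receptor betaglycan, was 0.221 and 0.286 RPKM in Py2T LT, 4.48 and 6.45 in M1, 17.3 and 19.9 in M2 and 8.91 and 9.29 in M3 (3.76 ± 0.14). All 6 clone libraries lay above Py2T LT for these 3 genes. The type I BMP receptors fell less: Acvr1 was 32.9 and 33 RPKM in Py2T LT and 18.6 to 24.7 in the clones (-0.67 ± 0.08), and Bmpr1a 36.4 and 40.9 against 19.9 to 29 (-0.60 ± 0.12). Acvr2b passed at 0.57 but not without Py2T LT replicate 2 (0.36) or without M3 replicate 1 (0.52). The activin receptors Acvr1b and Acvr2a and the BMP type II receptor Bmpr2 did not pass in the mean of the clones. Eng, the co-receptor endoglin, split the clones: it was 0.684 and 0.798 RPKM in Py2T LT, 4.92 and 3.99 in M1 and 3.28 and 3.05 in M2, but 0.323 and 0.28 in M3.

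The Smads that carry the signal were the most even group. Smad4, the common partner, was 49.1 to 56.7 RPKM in all 8 libraries, Smad3 45 to 67, Smad2 11.9 to 15.3 and Smad1 13.7 to 22.9. None of these 4 passed in the mean of the clones, except that Smad3 did when M1 replicate 1 was left out; Smad5 passed as lower, at -0.29 ± 0.11 (limma, adjusted p = 0.0433), but not when any 1 library of Py2T LT, M2 or M3 was left out (-0.35 to -0.27). Feedback inhibitors were lower: Smad7 was 38.3 and 35.5 RPKM in Py2T LT and 16.7 to 23.3 in the clones (-0.92 ± 0.08), and the ubiquitin ligases Smurf1 and Smurf2 were lower by -0.72 ± 0.08 and -0.97 ± 0.09. Smad6, which mainly restrains BMP signals, was instead higher, 1.67 to 2.58 RPKM against 1.1 and 0.827 (0.77 ± 0.14). Of the corepressors, Skil was 60.7 and 61.7 RPKM in Py2T LT and 15 to 26.7 in the clones (-1.52 ± 0.13) and Tgif1 was lower by -0.41 ± 0.08. Ski passed as higher, at 0.46, but not without Py2T LT replicate 2 (0.32).

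The 6 target genes divided into 3 higher and 3 lower. Id1 was 9.28 and 8.44 RPKM in Py2T LT, 82.1 and 60.8 in M1, 39.5 and 30.8 in M2 and 41 and 51.6 in M3 (2.37 ± 0.14; limma, adjusted p = 1.29e-06). Id2 was 9.38 and 14 RPKM against 45.7 to 67.4 (2.22 ± 0.14), and Id3 50.2 and 59.3 against 92.7 to 208 (1.35 ± 0.15). The clones and Py2T LT did not overlap for any Id gene. Ccn2, which encodes a matricellular protein induced by TGF-beta and by YAP, was 312 and 278 RPKM in Py2T LT and 9.45 to 41.2 in the clones, and it was the highest of the 45 genes in both Py2T LT libraries. Its replicates spread widely in each clone, for example 38.5 and 14.6 in M1, and its SE was 0.49, the largest of the 42 tested genes. Pmepa1, a membrane protein that restrains TGF-beta signalling, was 228 and 214 against 60.7 to 109 RPKM (-1.52 ± 0.11). Tgfbi, a TGF-beta induced matrix protein, was 7.73 and 10.9 RPKM in Py2T LT, 0.554 and 0.552 in M1, 0 and 0.0678 in M2 and 2.59 and 2.74 in M3.

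**Figure D2:**
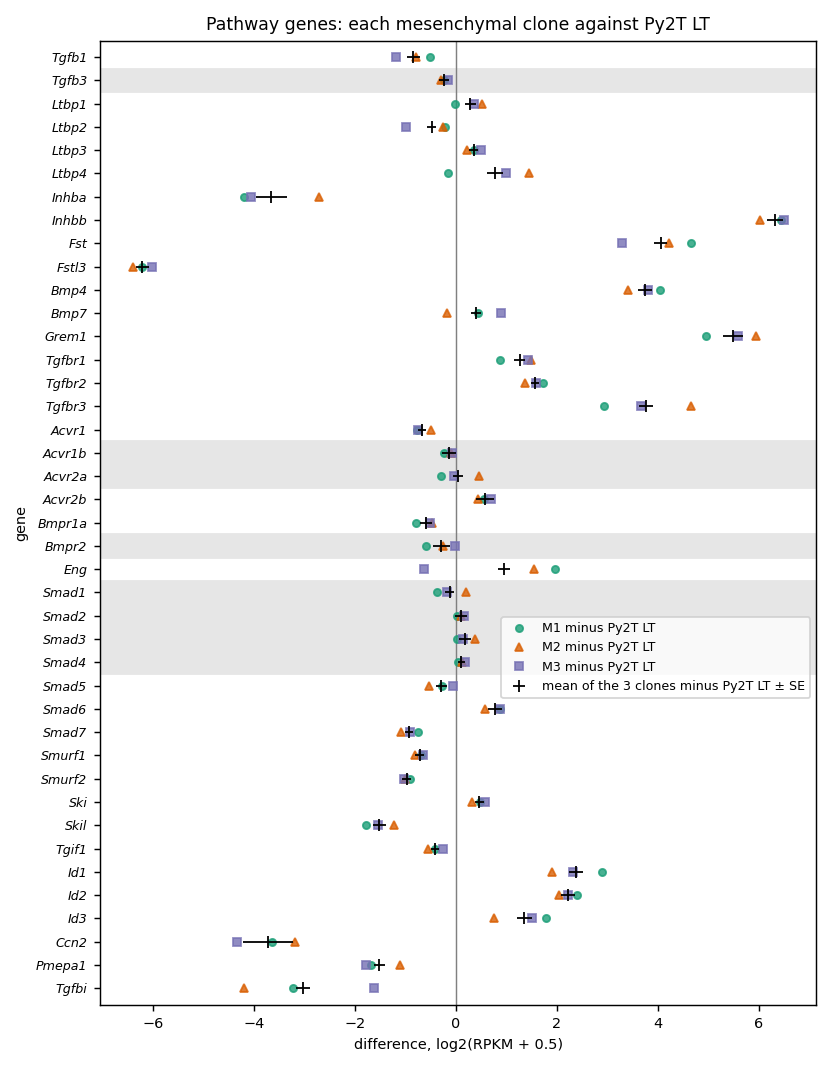
Difference of each clone from Py2T LT in log2(RPKM + 0.5) (coloured points) and of the mean of the 3 clones with its standard error (black), for the tested pathway genes other than Bmp2, which was listed at 0 in the clones. Grey rows did not pass in the mean of the clones, among them Smad1, Smad2, Smad3 and Smad4, and Eng is the gene whose M3 point lies on the other side of 0 from M1 and M2 with each clone past the threshold.

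In single clones 31 pathway genes were called in M1 (60.8% of all genes), 31 in M2 (57.4%) and 33 in M3 (59.4%). The 3 clones differed among themselves in 16 of 42 pathway genes (limma's F test), where 25.6% of all genes did. That count was 27 without M1 replicate 2, 8 without M2 replicate 1 and 7 without M2 replicate 2. M2 differed from M1 in 17 genes (23.1% of all genes) and from M3 in 11 (20.1%), and M1 from M3 in 6 (5.03%). Leaving out a library moved these counts too: M2 against M1 to 5 without either M2 library, M2 against M3 to 6 or 7 without any of the 4 libraries, and M1 against M3 to 3 without either M3 library and 19 without M1 replicate 2. Eng was the clearest of these differences, with M1 above M3 by 2.60 ± 0.14 (limma, adjusted p = 9.49e-05) and M2 above M3 by 2.18 ± 0.14. The endothelial markers Pecam1, Cdh5, Kdr and Tek were each at most 0.141 RPKM in the 6 clone libraries. Tgfbi was lower in M2 than in M3 by -2.58 ± 0.18 and lower in M1 than in M3 by -1.60 ± 0.18. Tgfbr3 was higher in M2 than in M1 by 1.71 ± 0.17, and Fst was higher in M1 than in M3 by 1.37 ± 0.15. Id3 was lower in M2 than in M1 by -1.03 ± 0.19, a call lost without M1 replicate 1 or M2 replicate 1, and Bmp7 was lower in M2 than in M3 by -1.06 ± 0.12.

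A further list of 89 genes of the same pathway, chosen as a list with earlier results of these data known, had 47 tested members. Of these, 17 were higher and 23 lower in the mean of the clones, where 32.4% and 32.6% of all genes were. Cdkn2b, a cell cycle inhibitor induced by TGF-beta, was 45.1 and 47.9 RPKM in Py2T LT but 0 to 0.0483 in every clone library, and Furin, the protease that processes TGF-beta and activin precursors, was 151 and 139 against 31.5 to 48.4. Both fell in every clone. On the other side, the Nodal antagonist Lefty1 was listed at 0 in both Py2T LT libraries and was 4.36 to 8.91 RPKM in the clones. Id4 was 1.37 and 0.808 RPKM in Py2T LT, 6.15 and 6.08 in M1, 9.61 and 10.1 in M2 and 2.35 and 2.41 in M3, and the ubiquitin ligase Nedd4l was 2.87 and 2.77 against 7.41 to 8.57.

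In M3 cells, knockdown of either Tet2 or Mbd3 came with more Inhba, Fst and Ccn2 and less Tgfbr3, Bambi and Tgfbi. Bambi and Tgfbi reached the filter of 0.5 CPM in shControl libraries alone. Knockdown of Tet2 came with the near loss of Grem1 and with less Bmp7, whereas Bmp7 and Inhbb passed as higher with shMbd3 in untreated cells but not in CI994 (0.51 and 0.22), and the Inhbb call ended with the GC trend removed. Some markers of cell state also shifted with both knockdowns. Cdh1 (E-cadherin) was 202 and 207 CPM with shTet2 and 170 and 202 with shMbd3 against 16.3 and 25.7 with shControl. Vim (vimentin) was 322 and 351 with shTet2 and 396 and 409 with shMbd3 against 1461 and 1525. Not all markers moved this way. The mesenchymal Cdh2 was higher, 329.5 and 324.8 CPM with shTet2 and 308.3 and 315.1 with shMbd3 against 243.4 and 247.7. The epithelial Krt8 with shMbd3, 691.5 and 690.5 CPM, lay between its shControl libraries, 323.6 and 1022. The part of these marker changes in the pathway genes was not tested. Of 44 tested pathway genes, 8 were higher and 11 lower with shTet2, where 10.5% and 12.9% of all 12808 tested genes were, and 10 were higher and 9 lower with shMbd3, where 15.3% and 16.9% were. Without the library labelled shControl replicate 1 the calls were 24 for shTet2 (32.9% of all genes) and 23 for shMbd3 (34.4%). The shTet2 count fell to 10 without shTet2 replicate 1 and to 11 without shTet2 replicate 2, and the shMbd3 count to 7 and 8 without shMbd3 replicates 1 and 2. In a fit of only the compared groups 5 and 4 pathway genes passed (2.72% and 3.01% of all genes): Inhba, Tgfbr3, Ccn2 and Tgfbi in each, with Grem1 for shTet2. Bmp2 had 0 reads in all 12 libraries.

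With CI994 in both arms, which uses neither untreated shControl library, 7 pathway genes were higher and 8 lower with shTet2 (6.69% and 9.28% of all genes) and 9 higher and 5 lower with shMbd3 (8.11% and 11.0%). When the library labelled shControl replicate 1 was left out of the shared estimate of spread, these became 23 (40.7%) and 28 (44.2%). The shMbd3 count was 7 without shControl CI994 replicate 1, 9 without shMbd3 CI994 replicate 1 and 6 without shMbd3 CI994 replicate 2. Some genes were called in the same direction in all 4 knockdown comparisons, singled out after their values were seen. Inhba, Fst and Ccn2 were higher and Tgfbr3, Bambi, Smad5 and Tgfbi lower. The share of all genes called alike in all 4 was not counted. Bambi and Tgfbi reached the filter in shControl libraries alone, so they could only be called lower. The comparisons within a treatment share their shControl libraries.

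Inhba was 8.24 and 9.73 CPM with shControl, 33.5 and 26.9 with shTet2 and 28.2 and 27.7 with shMbd3. With CI994 it was 11.8 and 10.7, 28 and 30.1, and 49.6 and 40.4. Every knockdown library lay above every shControl library. The untreated differences were 1.72 ± 0.15 for shTet2 (limma, adjusted p = 8.86e-05) and 1.53 ± 0.15 for shMbd3 (adjusted p = 0.000166), and they were 1.66 and 1.47 without the library labelled shControl replicate 1. Inhbb behaved differently: it was 153 and 171 CPM with shControl, 128 and 132 with shTet2 and 273 and 260 with shMbd3. With CI994 it was 269 and 244, 139 and 128, and 313 and 297, so that shTet2 was below shControl by -0.94 ± 0.10 (limma, adjusted p = 0.000245). The untreated rise with shMbd3, 0.66 ± 0.10, was -0.01 once the dependence on gene GC content was taken out of each library, and the call ended. Fst was 11.9 and 7.86 CPM with shControl, 32.6 and 32 with shTet2 and 19.3 and 16.3 with shMbd3, and with CI994 it was 9.53 and 8.95, 62.1 and 64.9, and 23 and 17.8. Its difference with shTet2 was 1.71 ± 0.22 untreated, or 2.06 without the library labelled shControl replicate 1, and 2.71 ± 0.22 with CI994. The smaller shMbd3 differences, 0.78 ± 0.22 and 1.05 ± 0.22, did not pass without either shMbd3 library untreated (0.65 and 0.91), nor in CI994 without either shControl library or shMbd3 replicate 1 (0.87 to 1.1).

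Grem1 was 48.9 and 72.8 CPM with shControl, 2.6 and 4.88 with shTet2 and 21.4 and 23.6 with shMbd3. With CI994 it was 37.1 and 64.5, 0.338 and 0.671, and 16.7 and 29.6. All shTet2 libraries lay below all others, and the difference from shControl was -3.86 ± 0.37 untreated (limma, adjusted p = 0.000144), -4.09 without the library labelled shControl replicate 1, and -5.64 ± 0.37 with CI994 (adjusted p = 2.22e-05). With shMbd3 it was -1.45 ± 0.37, a call that ended with the GC trend removed (-1.16) and without either shMbd3 library. Grem1 in shTet2 cells was also lower than in shMbd3 cells, by -2.41 ± 0.37. Bmp7 was 9.61 and 17.6 CPM with shControl, 5.2 and 4.58 with shTet2 and 25.2 and 27 with shMbd3, and with CI994 it was 17.1 and 18.4, 6.8 and 5.37, and 24.1 and 28.2. The groups were in the same order with and without CI994, with shTet2 lowest. The untreated rise of Bmp7 with shMbd3, 0.92 ± 0.23 (or 0.55 without the library labelled shControl replicate 1), did not pass without either shMbd3 library (0.95 and 0.88). Against shMbd3, shTet2 was lower by -2.22 ± 0.23 untreated (limma, adjusted p = 0.000286) and by -1.99 ± 0.23 with CI994. Bmp4 stayed between 3.34 and 10.3 CPM in all 12 libraries. Nog was at 0.04 to 1.25 CPM, with the highest levels in the shTet2 CI994 libraries (1.23 and 1.25, against 0.04 and 0.252 with shControl and CI994).

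Among receptors, Tgfbr3 was 49.3 and 63.3 CPM with shControl, 10 and 9.66 with shTet2 and 16.2 and 18.9 with shMbd3. With CI994 it was 39.2 and 51.7, 11.8 and 12.7, and 21.2 and 23.9. No knockdown library overlapped shControl, and the untreated differences were -2.42 ± 0.16 (limma, adjusted p = 1.78e-05) and -1.71 ± 0.16 (adjusted p = 0.000128), or -2.54 and -1.83 without the library labelled shControl replicate 1. Tgfbr2 was 155 and 141 CPM with shControl, 192 and 186 with shTet2 and 127 and 114 with shMbd3. These were called higher with shTet2 and lower with shMbd3, and the calls were lost in 4 and 5 of 15 alternatives. In CI994 Tgfbr2 was 189 and 191, 328 and 302, and 164 and 162, and shTet2 was above shControl by 0.72 ± 0.11 (limma, adjusted p = 0.00233). Tgfbr1 was lower with shMbd3, 133 and 155 against 252 and 220 CPM (-0.78 ± 0.14), and in CI994 132 and 127 against 189 and 229 (-0.72 ± 0.14); the untreated call ended with the GC trend removed (-0.29) and the CI994 call without shControl replicate 2 (-0.58) or shMbd3 replicate 2 (-0.69). Bambi, a pseudoreceptor without a kinase domain, had 17 and 14 reads in the shControl libraries and 28 and 26 with CI994, and 0 to 3 reads in each of the 8 knockdown libraries.

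Smad5 was 213 and 177 CPM with shControl, 112 and 104 with shTet2 and 143 and 135 with shMbd3, and with CI994 157 and 140, 85.9 and 78.7, and 104 and 89.5. Its difference was -0.82 ± 0.15 with shTet2 and -0.54 ± 0.15 with shMbd3, or -0.63 and -0.35 without the library labelled shControl replicate 1. The shMbd3 call ended without either shMbd3 library (-0.6 and -0.49). Smad2 was lower with shTet2, 105 and 103 against 185 and 146 CPM (-0.63 ± 0.13, or -0.41 without that library), and in CI994 81.1 and 82 against 116 and 117 (-0.52 ± 0.13). The untreated call of Smad2 ended without either shTet2 library (-0.65 and -0.61), and the CI994 call when any 1 of its 4 libraries was left out. Smad3 and Smad4 passed in none of the 4 comparisons of a knockdown with shControl when all libraries were kept. Without the library labelled shControl replicate 1 both passed for shTet2 in CI994.

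Ccn2 was 54.5 and 46.6 CPM with shControl, 149 and 150 with shTet2 and 191 and 152 with shMbd3, a difference of 1.59 ± 0.16 (limma, adjusted p = 0.000186) and 1.69 ± 0.16 (adjusted p = 0.000137). Without the library labelled shControl replicate 1 these were 1.76 and 1.86. Pmepa1 was 78.2 and 145 CPM with shControl, 169 and 198 with shTet2 and 218 and 237 with shMbd3. With shTet2 Pmepa1 was called higher in untreated cells, a call lost in 4 of 15 alternatives. It was higher with shMbd3 by 1.03 ± 0.23, or by 0.64 without that library, and in CI994 by 1.05 ± 0.23. The shMbd3 calls ended without either shMbd3 library untreated (1.07 and 0.98), and in CI994 without shControl replicate 1 (0.86) or shMbd3 replicate 2 (0.97). Tgfbi moved the other way: it had 44 and 73 reads (2.01 and 3.5 CPM) with shControl, 2 and 5 reads with shTet2 and 0 and 0 with shMbd3. Against the mean limit of 3 reads per library in the shMbd3 libraries, 0.13 CPM, it was at least 21.3-fold lower, or at least 27-fold lower against shControl replicate 2 alone. Id2 was lower with shTet2, 22.9 and 36.2 against 64 and 70.5 CPM (-1.18 ± 0.26; -0.86 and not passing without shTet2 replicate 1), but not called in CI994. Id3 was 6.68 CPM in the library labelled shControl replicate 1 and 33.5 in replicate 2, and passed in neither knockdown unless that library was left out.

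Other members passed in fewer comparisons, and nearly all of these calls ended when 1 of the compared libraries was left out. Tgfb2 was 2.62 and 2.73 CPM with shTet2 and 3.53 and 3.42 with shMbd3 in CI994, against 0.961 and 0.704 with shControl (1.25 ± 0.32 and 1.55 ± 0.32), and these groups did not overlap. Tgfb1 with shMbd3 was 14.5 and 16.5 against 5.08 and 10.6 CPM (0.96 ± 0.27), which did not pass without the library labelled shControl replicate 1 (0.52). Eng with shMbd3 behaved alike, at 1.92 and 1.65 against 0.32 and 0.91 CPM (1.05 ± 0.26, or 0.69 and not passing). So did Bmp4 with shTet2 (0.69 ± 0.18, or 0.42 and not passing). Ltbp2 with shTet2, 82.5 and 83.4 against 34.8 and 63.5 CPM, passed at 0.84 ± 0.20, or 0.47 without that library. Ltbp1 was lower with shMbd3 (-0.36) and, in CI994, higher with shTet2 (0.41). Bmpr2, the BMP type II receptor, was lower with shTet2 and with shMbd3, 115 and 114 and 112 and 130 against 195 and 162 CPM, but neither call held with the GC trend removed (-0.3 and -0.13).

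Some inhibitory members, the activin receptor Acvr2b and the signal-carrying Smad1 were also called. Smad7 was 77.1 and 79.3 CPM with shMbd3 against 35.2 and 60.2 with shControl (0.70 ± 0.20), a call that ended with the GC trend removed (0.23), and Skil was higher with shMbd3 by 0.39 untreated and 0.41 in CI994. Ski was lower with shTet2 (-0.40), Acvr2b was lower with shTet2 (-0.74 ± 0.15) and, in CI994, higher with shMbd3 (0.49), and Smad1 and Tgif1 were higher with shMbd3 in CI994 (0.51 and 0.39). With all libraries kept, Tgfb3, Ltbp3, Ltbp4, Fstl3, Acvr1, Acvr1b, Acvr2a and Bmpr1a passed in no comparison of a knockdown with shControl. Nor did Smad3, Smad4, Smad6, Smurf1, Smurf2, Id1 and Id3. Bmp2 was untested, and the share of all genes that passed in none was not counted. Smad3 stayed at 187 to 272 CPM over the 12 libraries and Smad4 at 113 to 157.

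**Figure D3:**
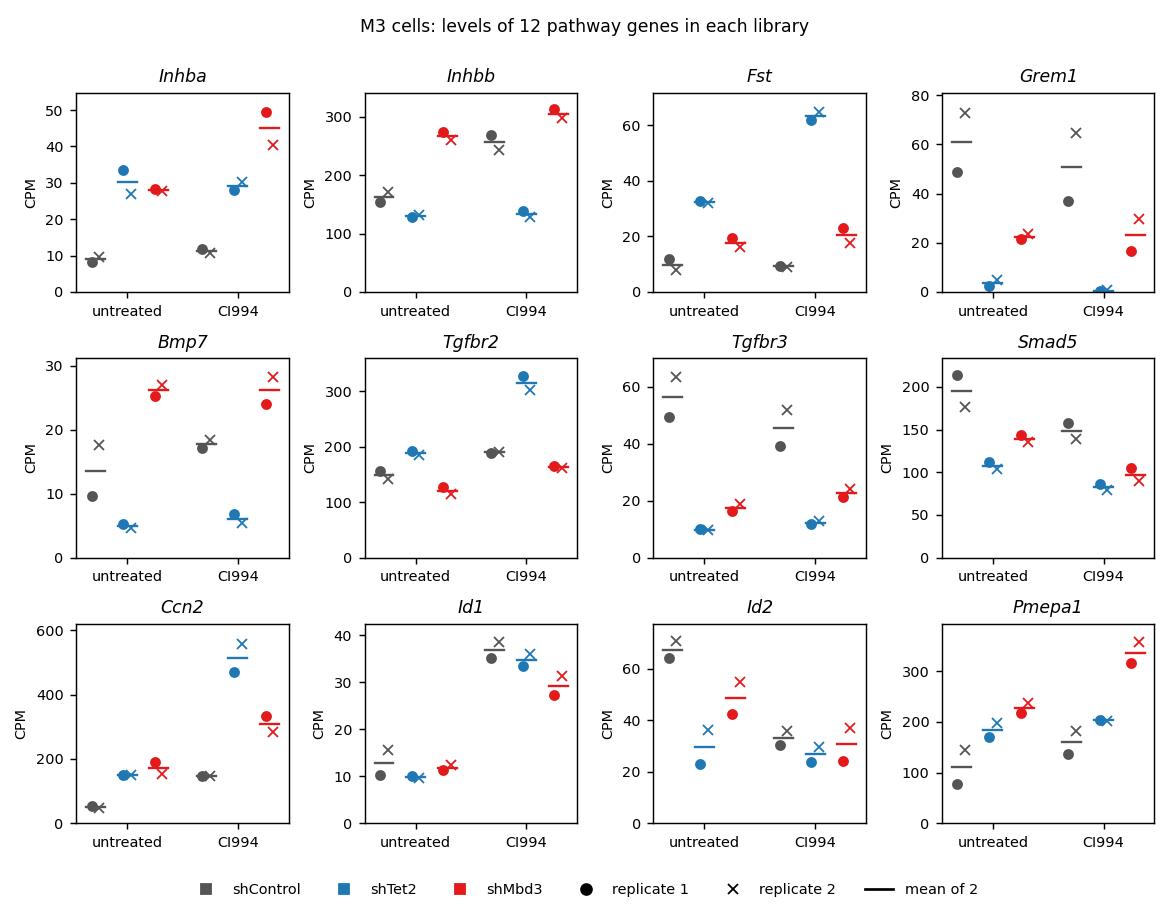
Levels in CPM (axes from 0) of 12 pathway genes in each of the 12 M3 shRNA libraries, untreated on the left and with CI994 on the right of each panel; circles and crosses are replicates 1 and 2 and bars the mean of 2. Inhba and Tgfbr3 separate both knockdowns from shControl, Grem1 is lowest with shTet2, Bmp7 lies on opposite sides of shControl in the knockdowns, and Id1 separates CI994 from untreated cells.

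The knockdowns were also compared with each other. Untreated, 3 pathway genes were higher and 7 lower with shTet2 than with shMbd3 (9.55% and 9.60% of all genes; 9 and 9 with the GC trend removed), and 24 were called without the library labelled shControl replicate 1 (45.3%), which belongs to neither group and acts through the shared spread. With CI994, 7 were higher and 10 lower (11.1% and 10.8%), and 34 without that library (47.0%). Leaving out any 1 of the 4 compared libraries gave 5 or 6 calls untreated and 7 to 10 with CI994. Fst, Tgfbr2 and Ltbp1 were higher and Grem1, Bmp7, Inhbb, Tgfbr3 and Acvr2b lower with shTet2 in both settings. The share of all genes called alike in both settings was not counted. Untreated, Fst, Tgfbr3 and Ltbp1 each lost the call in 4 of 15 alternatives, as did Acvr2b in CI994. Acvr2b, a type II activin receptor, was 10.8 and 8.67 CPM with shTet2 and 21.9 and 23.6 with shMbd3, a difference of -1.10 ± 0.15 (limma, adjusted p = 0.00103). Tgfbr2 differed by 0.74 ± 0.11 untreated and by 0.97 ± 0.11 with CI994. Inhbb differed by -0.94 ± 0.10 and -1.16 ± 0.10, and the first of these did not pass with the GC trend removed (-0.75).

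CI994 raised Id1 and Ccn2 in all 3 shRNA lines. Id1 went from 10.2 and 15.5 to 35.2 and 38.5 CPM with shControl, from 10 and 9.66 to 33.4 and 36 with shTet2 and from 11.3 and 12.4 to 27.2 and 31.3 with shMbd3. Every treated library lay above every untreated one. The differences were 1.48 ± 0.16 (limma, adjusted p = 0.000629), or 1.24 without the library labelled shControl replicate 1, then 1.70 ± 0.16 (adjusted p = 0.000297) and 1.26 ± 0.16 (adjusted p = 0.00189). Ccn2 rose to 146 and 147 CPM with shControl, 470 and 559 with shTet2 and 334 and 284 with shMbd3, by 1.50 ± 0.16, 1.70 ± 0.16 and 0.84 ± 0.16. The last of these did not pass without shMbd3 replicate 2 or shMbd3 CI994 replicate 1. The Id genes did not move as 1 group: Id2 fell with shControl, from 64 and 70.5 to 30.2 and 36 CPM (-1.05 ± 0.26), a call that ended with the GC trend removed (-0.73) and without either treated library, and Id3 was not called in any line with all libraries kept.

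In all, CI994 raised 6 and lowered 7 pathway genes with shControl (17.9% and 15.7% of all genes), 8 and 4 with shTet2 (12.6% and 11.7%) and 5 and 3 with shMbd3 (7.58% and 5.11%). The last split was 5 and 1 with DESeq2 size factors, and the shTet2 split 7 and 7 with the GC trend removed. Without the library labelled shControl replicate 1 the calls were 18 (29.7%), 27 (57.7%) and 17 (42.0%). In a fit of only the compared groups 0 passed with shControl (0.0976% of all genes), 27 with shTet2 (59.7%) and 15 with shMbd3 (38%). The shControl count was 29 without shControl replicate 2, 6 without shControl CI994 replicate 1 and 5 without shControl CI994 replicate 2. With shTet2 it was 5 to 7 when any 1 of the 4 compared libraries was left out, and with shMbd3 1 or 2.

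Tgif1, a corepressor that competes with coactivators on Smads, was 306 and 332 CPM untreated and 194 and 216 with CI994 in shControl cells, 284 and 286 against 194 and 205 in shTet2 cells, and 358 and 369 against 260 and 288 in shMbd3 cells. It was called lower in all 3 lines (-0.67, -0.58 and -0.41), and in none with the GC trend removed (-0.34, -0.34 and -0.26). Fstl3 was near the limit of detection untreated, at 0 to 0.249 CPM, and was 0.641 and 0.654, 0.93 and 1.12, and 0.673 and 0.559 CPM with CI994 in shControl, shTet2 and shMbd3 cells. It reached the filter of 0.5 CPM only with CI994, so it could enter the test only as a rise. Fstl3 too was called in all 3 lines, and in none with the GC trend removed. Tgfb1 went from 5.08 and 10.6 to 17.8 and 18.7 CPM with shControl and from 5.81 and 7.92 to 15.8 and 16.5 with shTet2, by 1.22 ± 0.27 (or 0.78 without the library labelled shControl replicate 1) and 1.13 ± 0.27. Both calls were lost without either treated library, and the second also without shTet2 replicate 1. Inhbb, 153 and 171 against 269 and 244 CPM in shControl cells, was called at 0.63 ± 0.10, but the difference was -0.16 with the GC trend removed, and Acvr2a likewise turned from -0.52 ± 0.17 to 0.07. Bmpr2 and Bmpr1a, both BMP receptors, were called lower in shControl cells (-0.60 ± 0.15 and -0.77 ± 0.18), the first not with the GC trend removed (-0.05). Ltbp4 was 5.79 and 5.41 CPM with CI994 and 0.567 and 0.797 without it in shTet2 cells (2.33 ± 0.59), and Grem1 fell in the same cells by 2.10 on the log2 scale, as its levels above show. Beside these changes, the haematopoietic markers Cd68 and Lyz2 were 6.69 to 16.6 and 2.41 to 4.75 CPM with CI994 and at most 3.12 and 0.357 CPM without it, and the basal keratin Krt14 reached 108 CPM. The other haematopoietic markers, Ptprc, Cd3e and Cd79a, were at most 0.378 CPM in every M3 shRNA library. The other basal markers, Krt5 and Trp63, were at most 0.604 CPM. The part of these marker changes in the pathway genes was not tested.

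**Figure D4:**
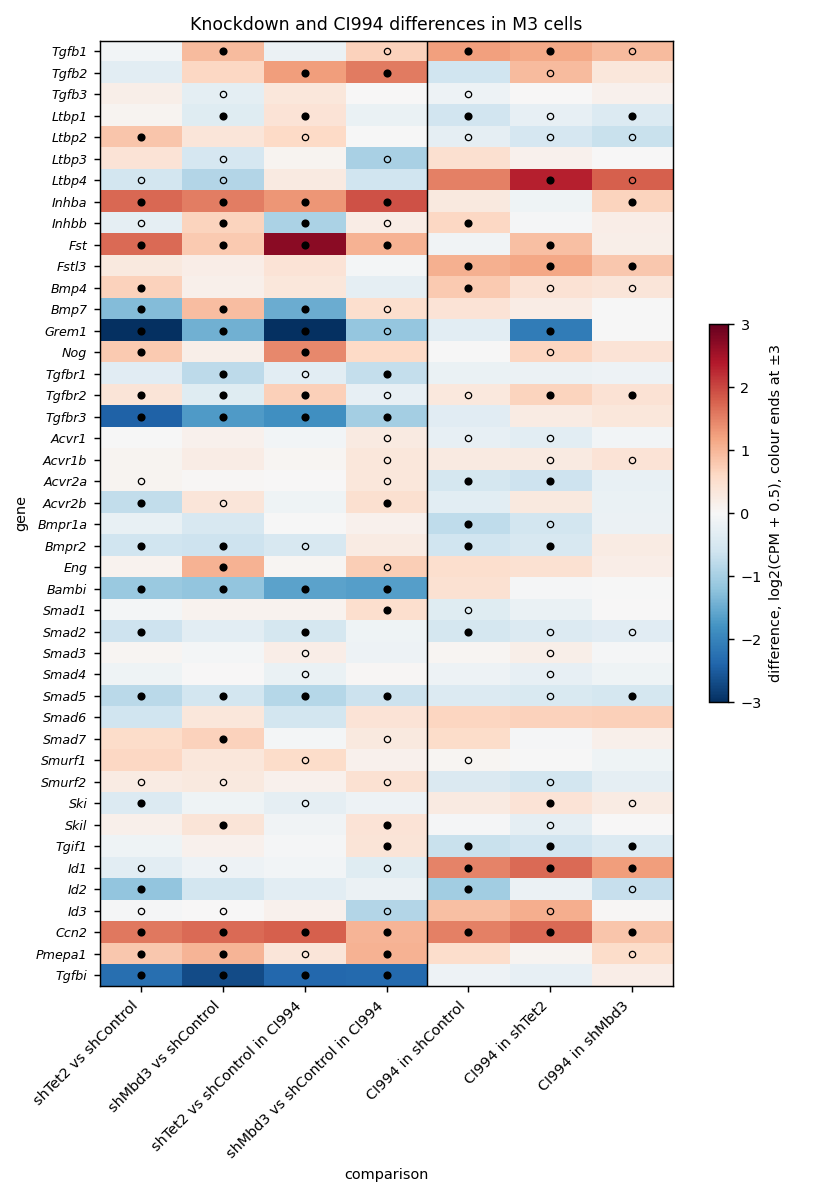
Differences in log2(CPM + 0.5) of 44 pathway genes (rows) in 7 comparisons of M3 cells (columns), red for higher and blue for lower, with colours ending at ±3. Filled dots mark an adjusted p under 0.05 with all libraries and open dots one reached only without the library labelled shControl replicate 1; the filled rows of Inhba, Fst, Tgfbr3, Bambi, Smad5, Ccn2 and Tgfbi run across the 4 knockdown columns, and those of Fstl3, Tgif1, Id1 and Ccn2 across the 3 CI994 columns.

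Whether a knockdown acted differently with CI994 was tested as an interaction. For shTet2, 0 of 44 pathway genes passed (0.687% of all genes) and 7 had an unadjusted p under 0.05 (11.6% of all genes), and for shMbd3 0 passed (0.0781% of all genes) and 5 had (12.7%). EdgeR's quasi-likelihood test on recovered reads gave 0 and 0, and DESeq2 gave 2 and 1. Without the library labelled shControl replicate 1, 2 genes passed for shTet2 (6.36% of all genes), Ltbp4 and Inhbb, and 0 for shMbd3 (0.713%). Without shControl replicate 2, so that the library labelled replicate 1 stood alone, 15 and 16 passed. The lowest adjusted p among the pathway genes was 0.0773 for shTet2 and 0.198 for shMbd3.

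Directions in the 2 sets, which share no library, were set side by side. Of 14 pathway genes called both for M3 against Py2T LT and for shTet2 against shControl, 10 moved in opposite directions, among them Inhba and Ccn2 (lower in M3, higher with shTet2) and Grem1 and Tgfbr3 (higher in M3, lower with shTet2). For shMbd3 these numbers were 12 of 16. The share of opposite directions was 71.4% and 75%, beside 67.4% for each over all genes called in both. With CI994 in both arms it was 6 of 10 for shTet2 (60%, beside 65.5%) and 7 of 10 for shMbd3 (70%, beside 67.2%). These numbers were 15 of 18 and 14 of 19 untreated without the library labelled shControl replicate 1 (83.3% and 73.7%, beside 68.8% and 68.5%) and 11 of 15 and 17 of 22 with CI994 (73.3% and 77.3%, beside 59.5% and 63.4%). Fst and Tgfbi went the same way in all 4 of these pairings, which reuse 1 result for M3 against Py2T LT. Tgfbi reached the CPM filter in shControl libraries alone, so it could only be called lower with a knockdown. Fst could only be called higher in M3.

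Of the further list of 89 pathway genes, 46 were tested in M3 cells, and 7 were higher and 5 lower with shTet2 (10.5% and 12.9% of all genes) and 7 higher and 12 lower with shMbd3 (15.3% and 16.9%). Without the library labelled shControl replicate 1, 45 were tested, with 11 higher and 8 lower for shTet2 (32.9% of all genes called) and 9 higher and 13 lower for shMbd3 (34.4%). Itgb8, an integrin subunit that activates latent TGF-beta, was 6.41 and 6.42 CPM with shControl, 1.28 and 0.647 with shTet2 and 0.96 and 1.12 with shMbd3. With CI994 it was 2.36 and 1.86, 2.62 and 2.55, and 1.64 and 1.43 CPM, lower than untreated in shControl (-1.44 ± 0.22), higher in shTet2 (1.06 ± 0.22) and called in neither knockdown within CI994. Itgb8 was also the 1 gene of this list with a called interaction, for shTet2 (2.51 ± 0.31; limma, adjusted p = 0.0175), named here after its value was seen. The BMP-binding protein Bmper was 12.6 and 10.6 CPM with shControl, 21.8 and 24 with shTet2 and 7.43 and 5.98 with shMbd3, so the knockdowns lay on either side of the control. It was higher with CI994 in each line, at 31.8 and 29.1, 77.9 and 74, and 23.8 and 21.3 CPM. The BMP antagonist Nbl1 was 8.65 and 11.1 CPM with shControl and CI994, 53 and 59.3 with shTet2 and CI994 and 46.1 and 48.6 with shMbd3 and CI994.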

How the data were processed

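Per the labels' protocols, total RNA was made into 20 libraries with a TruSeq stranded kit and sequenced. The submitters' processing notes name STAR and mm10 without versions, and the counting step is not given in the sources used here. The deposited values are RPKM for 8 libraries, which cannot be told from FPKM, and CPM for 12, read off from the values. Every CPM value was a whole number of reads within 0.01 reads (100% of values). Each set was fitted with limma 3.58.1 (R 4.3.3; mean trend, robust) on log2(value / TMM factor + 0.5) with group as the only term, for genes of at least 1 RPKM or 0.5 CPM in 2 libraries. A difference on this scale understates the change of low genes. P-values were adjusted by Benjamini-Hochberg over all genes tested (threshold 0.05). The labels name 2 independent experiments without tying replicate numbers to them, so p-values measure the spread between these samples. Gene symbols came from RefSeq, which named 19262 of 19311 and 24374 of 24454 IDs.

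The members, roles, further pathway genes, motifs and tests were chosen with earlier results of these data known. All 45 members could be named. Of the further list, those named are among the 3 largest rises and 3 largest falls of a comparison with adjusted p under 0.05, non-overlapping libraries and a mean of at least 5 in the higher group. One gene of that list is counted but not reported here. Alternatives were DESeq2 size factors, library size only, no filter, pseudocounts of 0.1 and 1, the replicate number as a block, removal of each library's GC trend alone or with the block, only the groups compared, each library left out, and edgeR 4.0.16 and DESeq2 1.42.0 on recovered reads. Leaving out the library labelled shControl replicate 1 from comparisons that do not use it, from the further list and from the count of directions was added after seeing the data. The limma fit was tested on simulated data with known differences.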

Additional observations from a re-analysis of the deposited data

How the results depend on the processing

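Of 4302 values of single genes under an alternative, 3813 kept their direction and side of the threshold, 480 lost and 3 gained significance, and 6 reversed. The reversals were Inhbb with shMbd3 (-0.01) and with CI994 in shControl (-0.16), and Acvr2a with CI994 in shControl (0.07), each with the GC trend removed, with and without the replicate block.

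Counts of called pathway genes that moved by over 1.5 times were as follows, and the cause was not tested. In a fit of only the groups compared, M2 against M1 gave 7 and M2 against M3 17. There shTet2 against shControl gave 5, shMbd3 against shControl 4, and shTet2 against shMbd3 25. CI994 gave 0 in shControl, 27 in shTet2 and 15 in shMbd3, and within CI994 shMbd3 against shControl gave 27 and shTet2 against shMbd3 34. Without a filter, CI994 in shMbd3 gave 5. With the GC trend removed, shTet2 against shMbd3 gave 18 and in CI994 27, CI994 in shMbd3 13, shMbd3 against shControl in CI994 23, and the shTet2 interaction 1. On recovered reads, DESeq2 called 2 and 1 genes for the shTet2 and shMbd3 interactions.

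Replicates share a number and no stated origin: replicate differences correlated between groups at -0.12 to 0.13 in the RPKM set and 0.10 to 0.52 in the CPM set. With the replicate number as a block, CI994 in shControl gave 21, CI994 in shTet2 19 and the shTet2 interaction 2. The block with the GC trend removed gave 23 for shTet2 against shMbd3, 22 for CI994 in shControl, 22 in shTet2 and 19 in shMbd3. In CI994 it gave 30 for shMbd3 against shControl and 32 for shTet2 against shMbd3, and it gave 5 for the shTet2 interaction.

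Leaving out each library in turn gave 26 to 36 calls for the mean of the clones, 25 to 35 for M1, 25 to 27 for M2, 27 to 30 for M3 and 7 to 27 among the clones. M2 against M1 gave 5 to 20, M1 against M3 3 to 19 and M2 against M3 6 to 7. Untreated, shTet2 gave 10 to 27, shMbd3 7 to 26 and shTet2 against shMbd3 5 to 6, or 24 without the library labelled shControl replicate 1. CI994 gave 5 to 29 in shControl, 5 to 7 in shTet2 and 1 to 2 in shMbd3, the last pair 27 and 17 without that library. In CI994, shTet2 gave 12, shMbd3 6 to 10 and shTet2 against shMbd3 7 to 10, or 23, 28 and 34 without it. The interactions gave 0 to 15 and 0 to 16. At 16086082 to 24977595 reads, levels under 0.12 to 0.186 CPM could not be told from 0.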
